A study of Gallus gallus with 8 samples.

Results

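The response of the E5 retinal pigment epithelium (RPE) to retinectomy with FGF2 was examined by comparing the E5 6hPR+FGF2 libraries with the E5 RPE libraries at every open region of the series. Both groups held 2 ATAC-seq libraries, each made from RPE of 2 chicken embryos, so that 4 of the 8 libraries entered the comparison. E5 6hPR+FGF2 is RPE collected 6 hours after the neural retina was removed surgically at embryonic day 5 and heparin beads soaked in fibroblast growth factor 2 were placed in the eye cup. E5 RPE is RPE of the developing eye at embryonic day 5, with no surgery and no bead. The remaining 4 libraries, E4 6hPR+FGF2 and E4 RPE, received and lacked the same treatment at embryonic day 4. No retinectomy without FGF2 was profiled in these libraries, and the treated RPE was 6 hours older, so that surgery, FGF2 and those hours cannot be told apart. The comparison covered 89823 open regions, of which 4454 lay on chromosome Z and 203 on chromosome W. A further class, termed depleted, comprised 373 regions whose E5 6hPR+FGF2 values summed to under 2% of their E5 RPE values, and 281 of these lay on other chromosomes. Z, W and depleted regions are described apart, and the other 84885 regions are described first.

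The RPE is the pigmented monolayer behind the neural retina, and in the early chick embryo it can give rise to neural retina when FGF2 is supplied after the retina is lost. FGF2 is a secreted ligand of receptor tyrosine kinases that signals through the Ras and MAP kinase cascade. ATAC-seq uses the Tn5 transposase to insert adapters into chromatin that is not wrapped tightly, so the read count of a region measures how accessible it was. Accessible regions include promoters and enhancers, and accessibility near a gene is not a measure of its expression. The chicken genome is divided into a few large macrochromosomes and many small, gene-dense microchromosomes, the smallest of which are called dot chromosomes. Females carry Z and W, and males carry a pair of Z chromosomes.

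E5 6hPR+FGF2 was the shallowest group, with 25233633 and 33925829 reads within open regions, against 72884966 and 60935269 in E5 RPE. The typical spread of replicates, as the median SD over regions in log2 units, was 0.22 in E5 6hPR+FGF2 and 0.13 in E5 RPE. Of 15 RPE and neural retina markers, only TFEC, which encodes an RPE transcription factor of the MITF family, was named in the annotation used here. It was the nearest gene of 10 regions, of which 5 fell and 0 rose in E5 6hPR+FGF2 (19.3% and 18.2% over all regions), and 2 of the 5 calls were lost when E5 RPE replicate 2 was left out. By edgeR and DESeq2 0 regions rose as well, and by limma 0 had a positive fold change at an unadjusted p of 0.05 or less. The most accessible of the 5 was chr1:25424780-25425920, with 1121 and 1296 normalized counts in E5 6hPR+FGF2, against 1876 and 2116 in E5 RPE (log2 fold change -0.73 ± 0.14 SE, limma adjusted p = 0.0034). Values are normalized counts, that is reads divided by a size factor for each library, and coordinates are those of the GRCg6a build.

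Accessibility differed between E5 6hPR+FGF2 and E5 RPE at 37.5% of open regions, and gains and losses were nearly equal in number. Differentially accessible regions were called with limma on log2(normalized count + 1) with p-values adjusted by Benjamini-Hochberg and a threshold of 0.05. They numbered 33694 of 89823 regions, of which 16331 (18.2%) were higher and 17363 (19.3%) were lower in E5 6hPR+FGF2. The values are scaled by DESeq2 size factors, which set the typical region near no change, so the balance of gains and losses depends on the scaling. With equal library totals 18326 regions were higher and 15740 lower, and by edgeR 17551 and 15479. On chromosomes other than Z and W and without the depleted regions, 15869 regions rose and 16513 fell. The median log2 fold change was 1.13 among regions that rose and -1.24 among those that fell. A change of at least 1 log2 unit was reached by 9463 and 10798 of them, and a change of at least 3 by 511 and 527. Regions that fell were wider, with a median of 680 bp against 490 bp in regions that rose, and had more signal in E5 RPE, with a median of 291 against 121 normalized counts. The E5 RPE signal is also the base of the fold change, so counting noise in E5 RPE enters the comparison of signal. The replicates of the groups did not overlap in 72.5% of the described regions, so this criterion is weak with 2 libraries a group. The count of called regions was 18260 when the first E5 RPE replicate was left out and 20223 when the second was.

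At E4 the same treatment and the same test gave calls at 20.0% of regions. Of the regions that rose at E5, 7782 also rose at E4, which is 49.0% of the E5 list and 85.3% of the 9122 regions that rose at E4. Of those that fell at E5, 6449 also fell at E4, or 39.1% of the E5 list and 79.4% of the 8122 at E4. The stages share no libraries, but their tests share the spread of each region, which was estimated over all 8 libraries. The calls of both stages are therefore not independent. The sign of the E4 fold change was that of the E5 fold change in 96.4% of regions that rose and 95.6% of those that fell, and in 71.6% of regions with no call at E5. A test of the difference between the stage responses, the interaction of stage and treatment, called 2 regions (0.00223%), although 8264 had an unadjusted p under 0.05. Both lay on chromosome 1 between 196930 and 200610, within a run of 7 adjacent losses that ends at the CLC2DL3 promoter, and both fell less at E5 than at E4. A call at E5 without one at E4 is therefore not shown to be a difference between the stages.

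The largest gains were at regions with almost no signal in E5 RPE. The largest was chr14:6267970-6268390, with 575 and 825 normalized counts in E5 6hPR+FGF2, against 12.7 and 17.5 in E5 RPE (log2 fold change 5.44 ± 0.46 SE, limma adjusted p = 7.43e-05). It lay among 13 other open regions within 25000 bp. The second was chr1:60593030-60593240, with 266 and 289 normalized counts in E5 6hPR+FGF2, against 8.49 and 5.000 in E5 RPE (log2 fold change 5.21 ± 0.58 SE, limma adjusted p = 0.000198). The third was an intergenic region nearest to K123, chr1:4057500-4057790, with 219 and 445 normalized counts in E5 6hPR+FGF2, against 12.02 and 7.5 in E5 RPE (log2 fold change 4.89 ± 0.52 SE, limma adjusted p = 0.000166). The promoter of the same gene also rose and is described with the promoters. The next 3, chr20:3745300-3745500, chr2:5151970-5152640 and chr26:4416150-4416360, each had a log2 fold change of 4.88. The one on chromosome 2 had the highest level of the 6, with 755 and 1009 normalized counts in E5 6hPR+FGF2, against 28.3 and 29.2 in E5 RPE. In all 6 regions the E4 fold change was also positive, from 3.13 to 5.12. That the E5 groups did not overlap was a condition for naming a region.

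Outside the depleted class, which holds larger falls, the largest losses were close to complete. The largest was chr30:1630090-1631350, with 0 and 12.2 normalized counts in E5 6hPR+FGF2, against 305 and 181 in E5 RPE (log2 fold change -6.02 ± 0.90 SE, limma adjusted p = 0.000834). The second, chr30:1235770-1242680, was also the largest loss among regions over 5000 bp, with 51.4 and 13.7 normalized counts in E5 6hPR+FGF2, against 1768 and 1338 in E5 RPE (log2 fold change -5.79 ± 0.46 SE, limma adjusted p = 6.15e-05). The third, chr15:299620-299990, had 11.02 and 0 normalized counts in E5 6hPR+FGF2, against 221 and 147 in E5 RPE (log2 fold change -5.71 ± 0.91 SE, limma adjusted p = 0.00113). The E5 6hPR+FGF2 replicates differed from one another at these positions, where groups that did not overlap were again a condition for naming. The other 3 were chr6:1042810-1043840, chr31:897790-898460 and chr22:5402730-5403320, with log2 fold changes of -5.55, -5.49 and -5.49. The 6 regions retained between 2.04% and 3.001% of their E5 RPE signal and thus lay just outside the depleted class. Their E4 fold changes were also negative, from -3.96 to -7.24.

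**Figure D1:**
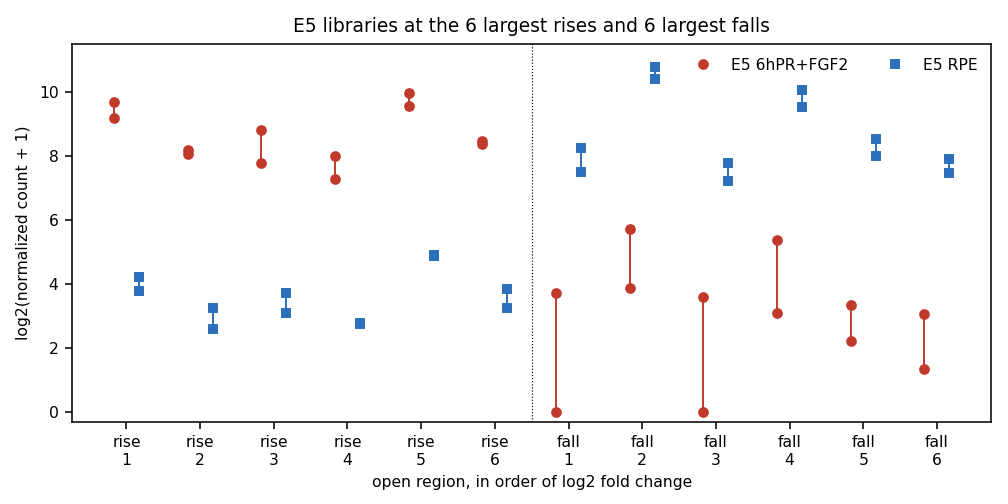
Normalized counts, as log2(normalized count + 1), in the 2 E5 6hPR+FGF2 libraries (red circles) and the 2 E5 RPE libraries (blue squares) at the 6 largest gains and 6 largest losses. Each vertical line joins the replicates of a group, and groups that did not overlap were a condition for choosing a region. The rises start from E5 RPE values of 5 to 29.2 normalized counts.

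Large changes were present in every class of region. Among regions of 2000 to 5000 bp the largest gain was chr19:7486480-7488530, with 1512 and 2176 normalized counts in E5 6hPR+FGF2, against 199 and 183 in E5 RPE (log2 fold change 3.24 ± 0.27 SE, limma adjusted p = 7.05e-05). The largest gain in a region over 5000 bp was chr30:41300-46490, with 727 and 445 normalized counts in E5 6hPR+FGF2, against 124 and 118 in E5 RPE (log2 fold change 2.22 ± 0.36 SE, limma adjusted p = 0.00115). Among regions of 1000 to 2000 bp it was chr17:1822680-1823900, with a log2 fold change of 3.91. The maximal gains of these wide classes were smaller than those of narrow ones. The classes over 2000 bp also hold fewer regions and more E5 RPE signal, so the maxima cannot show an effect of width. A region with no other open region within 25000 bp, chr1:61423540-61423850, had 298 and 399.6 normalized counts in E5 6hPR+FGF2, against 27.6 and 10.8 in E5 RPE, and an equally isolated one, chr1:137724580-137725190, had 5.51 and 7.6 normalized counts in E5 6hPR+FGF2, against 362 and 274 in E5 RPE. Their log2 fold changes were 4.23 and -5.40 (limma adjusted p = 0.000277 and 2.26e-05). At the other extreme, 9624 regions had at least 1000 normalized counts in every E5 library, and the 4 steadiest of them had log2 fold changes that rounded to 0. One of these, chr18:10450260-10452370, had 5395 and 5987 normalized counts in E5 6hPR+FGF2, against 5964 and 5416 in E5 RPE, and chr10:11034000-11035470 had 1049 and 1284 normalized counts in E5 6hPR+FGF2, against 1166 and 1155 in E5 RPE.

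Gene names were available for part of the genome. They came from a supplementary annotation of regions and peak summits. On chromosome 1 from 20010 to 27315070 each of 1926 open regions had a feature class and 1174 had a gene symbol, and 1478 regions overlapped annotated peak summits, most of them on chromosome 1 as well. A name is that of the nearest gene and marks a position, not a target of the region. The paper describes its library of summits as holding a binding motif of OTX2, an RPE transcription factor, and as changed significantly in accessibility. Shares over regions named through summits may therefore differ from those of unselected regions, and this was not tested. In the annotated stretch, 1922 regions were neither depleted nor on Z or W, of which 17.3% rose and 24.1% fell. Promoter regions had the smallest median absolute log2 fold change of the feature classes. It was 0.38 in 138 promoter regions, against 0.67 in 971 intronic and 0.68 in 702 intergenic regions. Of promoter regions 21.01% rose and 18.1% fell, while 16.7% of intronic regions rose and 25.4% fell, and 17.4% of intergenic regions rose and 23.5% fell. Promoter regions also had more signal, with a median of 1094 normalized counts in E5 RPE against 125 in introns, and were wider, with a median of 1235 bp against 440 bp. The part of signal and width in these differences was not tested.

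Genes of axon guidance and neuronal migration are used by growing axons and migrating neurons to find their way, and 125 open regions lay nearest to 10 of them. Of these 21 rose and 31 fell, with a median log2 fold change of -0.32, against 17.9% higher, 22.3% lower and a median of -0.12 over all 1858 regions annotated with a gene. The largest gain of the list was in an intron of PLXNA4, a receptor for class 3 semaphorins, at chr1:2919570-2919850, with 287 and 365 normalized counts in E5 6hPR+FGF2, against 18.4 and 28.3 in E5 RPE (log2 fold change 3.77 ± 0.42 SE, limma adjusted p = 0.000209). PLXNA4 was nearest to 21 regions, of which 4 rose and 2 fell. The semaphorin genes held changes of both signs. Near SEMA3A, which encodes a secreted repellent of axons, chr1:9206880-9207370 had 228 and 416 normalized counts in E5 6hPR+FGF2, against 28.3 and 24.2 in E5 RPE (log2 fold change 3.51 ± 0.52 SE, limma adjusted p = 0.000797). Another intergenic region nearest to SEMA3A, chr1:9333750-9334430, had 62.5 and 111 normalized counts in E5 6hPR+FGF2, against 523 and 401 in E5 RPE (log2 fold change -2.44 ± 0.32 SE, limma adjusted p = 0.000415). Of 32 regions nearest to SEMA3A, 5 rose and 5 fell. An intron of SEMA3D, at chr1:8928200-8928450, had 182 and 259.8 normalized counts in E5 6hPR+FGF2, against 24.05 and 15.8 in E5 RPE, with a log2 fold change of 3.41 (limma adjusted p = 0.000187), and the SEMA3D promoter rose as well. SEMA3D was nearest to 24 regions, of which 7 rose and 6 fell. Near SEMA3E 7 of 19 regions fell and 1 rose, and the largest fall, at chr1:9625270-9626090, had 129 and 286 normalized counts in E5 6hPR+FGF2, against 593 and 1046 in E5 RPE. Near SEMA3C 4 of 8 regions fell and 1 rose. An intron of RELN, which encodes the matrix protein reelin that positions migrating neurons, had 97.4 and 155 normalized counts in E5 6hPR+FGF2, against 29.00 and 17.5 in E5 RPE at chr1:13440100-13440370, with a log2 fold change of 2.39. RELN was nearest to 11 regions, of which 2 rose and 4 fell, with a median of -0.46.

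Of 33 regions nearest to 11 genes of Wnt, Norrin, Hedgehog and BMP signalling, 11 fell and 4 rose (33.3% and 12.1%, beside 22.3% and 17.9% of all regions with a gene symbol). Wnt, Hedgehog and BMP signals pattern the optic cup. TSPAN12, a co-receptor for Norrin, was nearest to 14 of the regions, of which 5 fell and 2 rose. The largest fall, at chr1:23675110-23676410, had 162 and 184 normalized counts in E5 6hPR+FGF2, against 1025 and 795 in E5 RPE (log2 fold change -2.38 ± 0.19 SE, limma adjusted p = 5.99e-05). A narrower region at chr1:23706630-23706840 had 125 and 211 normalized counts in E5 6hPR+FGF2, against 36.8 and 31.7 in E5 RPE (log2 fold change 2.22 ± 0.33 SE, limma adjusted p = 0.000765). Both lie in introns of a transcript other than that of the nearest promoter. NDP, which encodes Norrin itself, fell at 1 of 4 regions, the intronic chr1:112503930-112504640, with 114 and 139.8 normalized counts in E5 6hPR+FGF2, against 328 and 317 in E5 RPE and a log2 fold change of -1.35. WNT2, a Wnt ligand, and SMO, the transducer of Hedgehog signals, each had 1 region that rose, with log2 fold changes of 0.90 and 0.81 (limma adjusted p = 0.0174 and 0.0133). Both calls were lost when E5 6hPR+FGF2 replicate 1 or E5 RPE replicate 1 was left out, and that of WNT2 also without E5 RPE replicate 2. SMO was nearest to 3 regions, of which 1 rose and 1 fell, with log2 fold changes from -0.79 to 0.81.

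Growth factor and kinase signalling, the class of pathway through which FGF2 acts, was represented by 13 genes and 112 regions, of which 14 (12.5%) rose and 26 (23.2%) fell, beside 17.9% and 22.3% of all regions with a gene symbol. The median log2 fold change of the list was 0.02, against -0.12 over those regions. MET, the receptor for hepatocyte growth factor, held an intronic region at chr1:25137220-25137460 with 149 and 223 normalized counts in E5 6hPR+FGF2, against 22.6 and 22.5 in E5 RPE (log2 fold change 2.96 ± 0.34 SE, limma adjusted p = 0.000234). MAPK11, a p38 MAP kinase, held one at chr1:20584840-20585070 with 163 and 243 normalized counts in E5 6hPR+FGF2, against 24.05 and 32.5 in E5 RPE (log2 fold change 2.79 ± 0.37 SE, limma adjusted p = 0.000465). Groups that did not overlap were a condition for naming either position. MET was nearest to 5 regions and MAPK11 to 6, and for each gene 1 region rose and 1 fell. An intron of RASGRP3, an activator of Ras, had 69.8 and 111 normalized counts in E5 6hPR+FGF2, against 453 and 422 in E5 RPE at chr3:31210910-31211680, with a log2 fold change of -2.30. An isolated region nearest to PIM3, a serine/threonine kinase gene, had 29.4 and 48.6 normalized counts in E5 6hPR+FGF2, against 237 and 152 in E5 RPE at chr1:19430150-19430720. An intron of RCAN1, a regulator of calcineurin, had 241 and 340.4 normalized counts in E5 6hPR+FGF2, against 974 and 916 in E5 RPE at chr1:107286830-107288060 (log2 fold change -1.72 ± 0.23 SE, limma adjusted p = 0.000447). RCAN1 and TIAM1, an activator of Rac, had 5 of 13 and 6 of 22 regions lower. By limma, edgeR and DESeq2 0 of these regions rose, and 1 region of RCAN1 had a positive fold change at an unadjusted limma p of 0.05 or less, against 0 of TIAM1.

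Regions near 16 transcription factor genes numbered 134, of which 26 (19.4%) rose and 28 (20.9%) fell, near the 17.9% and 22.3% of all regions with a gene symbol. An intron of BCOR, a corepressor that binds BCL6, had 446 and 416 normalized counts in E5 6hPR+FGF2, against 33.9 and 60.00 in E5 RPE at chr1:113688330-113688550 (log2 fold change 3.23 ± 0.34 SE, limma adjusted p = 0.000155), and 5 of 19 BCOR regions rose. BACH1, a repressor of oxidative stress genes, rose at 3 of 6 regions, the largest in an intron at chr1:105453370-105454030 with 334 and 480.1 normalized counts in E5 6hPR+FGF2, against 58.7 and 70.00 in E5 RPE (log2 fold change 2.63 ± 0.34 SE, limma adjusted p = 0.000421). NRF1, an activator of mitochondrial genes, rose at 4 of 5 regions and fell at 0 of 5 by limma, edgeR and DESeq2, also at an unadjusted limma p of 0.05 or less. RUNX1, a runt factor, rose at a promoter region, chr1:107507200-107507440, with 149 and 161 normalized counts in E5 6hPR+FGF2, against 33.2 and 25.8 in E5 RPE (log2 fold change 2.36 ± 0.32 SE, limma adjusted p = 0.000501). The nearest-gene regions of SIM2 at chr1:108102990-108103270 and of the ETS family gene ERG at chr1:109026350-109026600 had log2 fold changes of 2.52 and 2.27. ERG nevertheless fell at 6 of 15 regions. GABPA, another ETS factor, fell at 4 of 8 regions and rose at 0 of 8 by each of the same tools and at an unadjusted limma p of 0.05 or less. The largest fall, at chr1:103962890-103964220, had 90.01 and 119 normalized counts in E5 6hPR+FGF2, against 679 and 692 in E5 RPE (log2 fold change -2.72 ± 0.25 SE, limma adjusted p = 9.81e-05).

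The matrix and adhesion list held 78 regions nearest to 16 genes, with 15 (19.2%) higher and 14 (17.9%) lower, beside 17.9% and 22.3% of all regions with a gene symbol. LAMB1, which encodes a laminin chain of basement membranes, rose at 3 of 4 regions with a median log2 fold change of 2.19. The largest of its gains, at chr1:15137890-15138380, had 312 and 494 normalized counts in E5 6hPR+FGF2, against 43.1 and 68.3 in E5 RPE (log2 fold change 2.83 ± 0.31 SE, limma adjusted p = 0.000195). TES, which encodes a focal adhesion protein, was the nearest gene of 11 regions, and the largest gain, at chr1:25297190-25297970, had 524 and 700.5 normalized counts in E5 6hPR+FGF2, against 99.01 and 79.2 in E5 RPE (log2 fold change 2.76 ± 0.35 SE, limma adjusted p = 0.000398). A group of 5 neighbouring regions that all rose spanned the TES and CAV2 positions. Further losses included an intron of ITIH2, at chr1:4774560-4774770, with 16.5 and 28.9 normalized counts in E5 6hPR+FGF2, against 80.6 and 135 in E5 RPE, and a region nearest to CLDN8, a tight junction claudin, at chr1:105758380-105759100, with 60.6 and 69.9 normalized counts in E5 6hPR+FGF2, against 239.8 and 223 in E5 RPE. ITIH5, like ITIH2 a hyaluronan-binding inter-alpha-trypsin inhibitor, rose at its promoter with a log2 fold change of 1.66.

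Genes of transport, metabolism and mature RPE or photoreceptor function were nearest to 104 regions, of which 17 (16.3%) rose and 25 (24.0%) fell, near the 17.9% and 22.3% of all regions with a gene symbol. NYX, whose product nyctalopin is needed for signalling from photoreceptors to ON bipolar cells, fell at 4 of 7 regions and rose at 0 of 7 by limma, edgeR and DESeq2, with 0 higher at an unadjusted limma p of 0.05 or less. Its largest fall, at chr1:113289270-113290050, had 116 and 75.97 normalized counts in E5 6hPR+FGF2, against 340.2 and 370.0 in E5 RPE (log2 fold change -1.91 ± 0.26 SE, limma adjusted p = 0.000566), while at E4 the same region had 202 and 168 normalized counts in E4 6hPR+FGF2, against 204 and 152 in E4 RPE. The difference between the stages was not called (interaction -1.98 ± 0.37 SE, limma adjusted p = 0.367). ABCG1, a cholesterol exporter, fell at 4 of 7 regions and rose at 1, and its intronic region with the largest fall, at chr1:110653950-110656960, had 858 and 1302 normalized counts in E5 6hPR+FGF2, against 3406 and 3459 in E5 RPE (log2 fold change -1.70 ± 0.20 SE, limma adjusted p = 0.000285). PFKFB3, an activator of glycolysis, rose at 7 of 15 regions and fell at 2. One of its gains, at chr1:4185360-4185710, had 371 and 399.6 normalized counts in E5 6hPR+FGF2, against 109.6 and 101 in E5 RPE, and one of its losses, at chr1:4131970-4132560, had 130.4 and 103 normalized counts in E5 6hPR+FGF2, against 391.8 and 372 in E5 RPE. An intron of SLC2A13, a myo-inositol transporter gene, had the largest fold change of the lists, from low counts, with 108 and 201 normalized counts in E5 6hPR+FGF2, against 17.7 and 4.17 in E5 RPE (log2 fold change 3.92 ± 0.74 SE, limma adjusted p = 0.00273). SOD1, a superoxide dismutase gene, was nearest to 17 regions, of which 4 fell and 2 rose, with log2 fold changes from -1.58 to 0.92.

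Among neurotransmitter receptor and neural surface genes, 10 of 82 regions (12.2%) rose and 21 (25.6%) fell, with a median log2 fold change of -0.35, beside 17.9%, 22.3% and -0.12 over all regions with a gene symbol. GRM3, a metabotropic glutamate receptor gene, had large changes of both signs. Its intronic region at chr1:8262820-8263060 had 180.0 and 249 normalized counts in E5 6hPR+FGF2, against 24.8 and 24.998 in E5 RPE (log2 fold change 3.04 ± 0.33 SE, limma adjusted p = 0.000187), and an intergenic region nearest to it, at chr1:8410240-8410980, had 51.4 and 63.8 normalized counts in E5 6hPR+FGF2, against 329 and 357 in E5 RPE (log2 fold change -2.56 ± 0.25 SE, limma adjusted p = 0.00013). An intron of TAFA5, a secreted chemokine-like factor, had 18.4 and 12.2 normalized counts in E5 6hPR+FGF2, against 120.2 and 101 in E5 RPE at chr1:17405880-17406160. CADPS2, which acts in vesicle release, fell at 4 of 10 regions and rose at 1. PTPRZ1, a receptor tyrosine phosphatase gene, had 5 regions, with log2 fold changes from -0.70 to -0.23 and 0 calls by limma, edgeR and DESeq2, also at an unadjusted limma p of 0.05 or less.

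Cell cycle and DNA replication genes had few regions. Of 20 regions nearest to 8 genes, 5 rose and 4 fell, beside 17.9% and 22.3% of all regions with a gene symbol. The region nearest to DONSON, a replication fork factor, at chr1:106784680-106784890, had 147 and 179 normalized counts in E5 6hPR+FGF2, against 20.5 and 14.2 in E5 RPE (log2 fold change 3.18 ± 0.43 SE, limma adjusted p = 0.00052). The promoter of MCM10, which takes part in replication initiation, had 478 and 448 normalized counts in E5 6hPR+FGF2, against 276 and 275 in E5 RPE, and that of GTSE1, a regulator of the G2 phase, had 527 and 624 normalized counts in E5 6hPR+FGF2, against 914 and 986 in E5 RPE. Their log2 fold changes were 0.75 and -0.72 (limma adjusted p = 0.00852 and 0.00409), and the MCM10 call was lost without E5 RPE replicate 1.

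**Figure D2:**
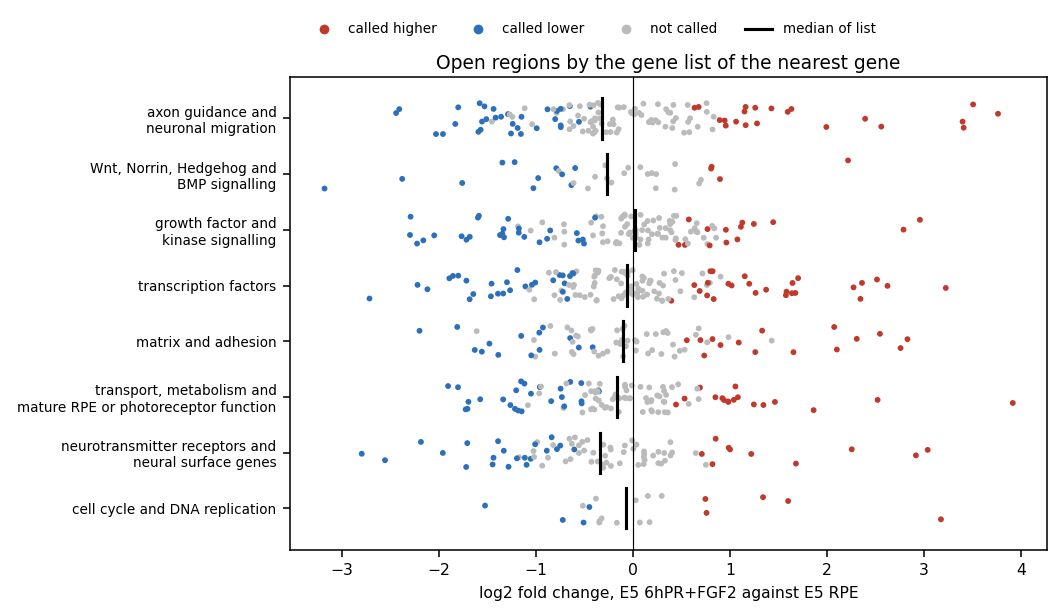
Log2 fold change of E5 6hPR+FGF2 against E5 RPE for each open region nearest to a gene of 8 lists. Red points rose, blue points fell and grey points were not called by limma, vertical positions within a list are random, and black bars mark list medians. Every list held regions of both signs, and medians lay between -0.35 and 0.02.

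The promoter regions with the largest gains were 230 to 700 bp wide and those with the largest losses 250 to 3780 bp. Of 74 promoter regions with a call, a higher mean of 100 normalized counts or more and groups that did not overlap, 38 rose and 36 fell. Over all described regions that met these criteria, 14867 of 28317 rose and 13450 fell. Besides RUNX1 and ITIH5, the largest gains were at the promoters of K123, FAM3C, SEMA3D and DHRS4. The K123 promoter, chr1:4061280-4061510, had 152 and 138 normalized counts in E5 6hPR+FGF2, against 16.97 and 25.8 in E5 RPE (log2 fold change 2.73 ± 0.42 SE, limma adjusted p = 0.000949). That of FAM3C, a secreted cytokine-like protein, had 134 and 126 normalized counts in E5 6hPR+FGF2, against 31.8 and 25.8 in E5 RPE at chr1:23349700-23349960, and that of SEMA3D had 178 and 209.7 normalized counts in E5 6hPR+FGF2, against 55.9 and 40.8 in E5 RPE at chr1:8877310-8877590. DHRS4, a retinol-metabolizing reductase, had 527 and 439 normalized counts in E5 6hPR+FGF2, against 152 and 169 in E5 RPE at chr1:71730-72430, with 13 other open regions within 25000 bp. The largest fall was at the promoter of CLC2DL3, chr1:214900-218680, with 852 and 1048 normalized counts in E5 6hPR+FGF2, against 5228 and 4473 in E5 RPE (log2 fold change -2.35 ± 0.18 SE, limma adjusted p = 4.78e-05). The promoter of ACSBG1, an acyl-CoA synthetase for very long fatty acids, had 239 and 301 normalized counts in E5 6hPR+FGF2, against 1192 and 1091 in E5 RPE at chr10:4197450-4199290 (log2 fold change -2.08 ± 0.28 SE, limma adjusted p = 0.00053). Smaller falls were at promoters of AHCYL2 and UBE2Q2 and at promoter regions nearest to gga-mir-222a and gga-mir-6588, with log2 fold changes from -1.65 to -1.09. The UBE2Q2 call was lost when E5 6hPR+FGF2 replicate 2 or either E5 RPE replicate was left out and when reads were thinned to the shallowest library.

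The response shifted with the width of a region. Of 11723 regions up to 250 bp, 20.2% rose and 13.2% fell, with a median log2 fold change of 0.08. Of 508 regions over 5000 bp, 5.91% rose and 38.0% fell, with a median of -0.34. The classes between them followed in order, with medians of 0.06, -0.05, -0.10 and -0.15. At E4 the medians were 0.07 in the narrowest and -0.20 in the widest class. The difference in median log2 signal between the widest and the narrowest class was 6.09 and 6.33 in the E5 6hPR+FGF2 libraries and 6.47 and 6.46 in the E5 RPE libraries, so the groups did not overlap, although 2 against 2 libraries cannot give an exact permutation p below 0.3333. The spread of these library values between replicates was SD 0.12. Their gap between the groups was smaller than the difference between the class medians of the fold change, which are taken over regions. That difference was -0.42. It was -0.50 among regions of high E4 RPE signal per 100 bp, -0.065 among those of middle signal, where 19 regions exceeded 5000 bp, and -0.78 among those of low signal, with equal numbers of regions in these 3 groups. The width classes followed in order only at high signal. From narrowest to widest, the medians at low signal were 0.12, 0.08, 0.05, 0.10, -0.11 and -0.66, the last over 174 regions. At middle signal they were 0.007, 0.03, -0.10, -0.06, 0.03 and -0.06.

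Small chromosomes gained accessibility relative to large ones. On macrochromosomes 1 to 5, 15.5% of 44893 regions rose and 23.4% fell, with a median log2 fold change of -0.16. On microchromosomes 11 to 15 and 17 to 28, 24.6% of 23864 regions rose and 12.3% fell, with a median of 0.15. On the intermediate chromosomes the shares were 17.7% and 19.6%, and on the dot chromosomes 16 and 30 to 33 they were 33.1% and 11.9%. The median log2 signal of microchromosomes exceeded that of macrochromosomes by 0.70 and 0.60 in E5 6hPR+FGF2 and by 0.31 and 0.33 in E5 RPE, a difference of 0.31 (SD between replicates 0.05). Microchromosomes also took a larger share of the signal of these regions, 35.1% and 34.0% in E5 6hPR+FGF2 against 32.03% and 32.45% in E5 RPE. Chromosomes 30, 32 and 33 had medians of 0.55, 0.41 and 0.34, whereas the dot chromosomes 16 and 31 went the other way with -0.23 and -0.48. Across the 27 chromosomes without the dot chromosomes, the median fell with chromosome size (Spearman rho -0.96 at E5 and -0.98 at E4, against -0.69 and -0.71 over all 32 chromosomes), as a description without a test, since all points share the same libraries. The size of a chromosome was taken as the end of its last open region. By this measure the dot chromosomes 31 and 33, ending at 6139100 and 7754930, were larger than microchromosome 25, ending at 3967960. Chromosome 33 held 725 of the 1342 dot chromosome regions. Within each of the 6 width classes the median was higher on microchromosomes than on macrochromosomes, and regions of 250 to 500 bp had medians of 0.35 and -0.09 on them. Dot chromosomes were above microchromosomes up to 2000 bp and below them in wider regions, with medians of -0.38 and -0.17 over 5000 bp.

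**Figure D3:**
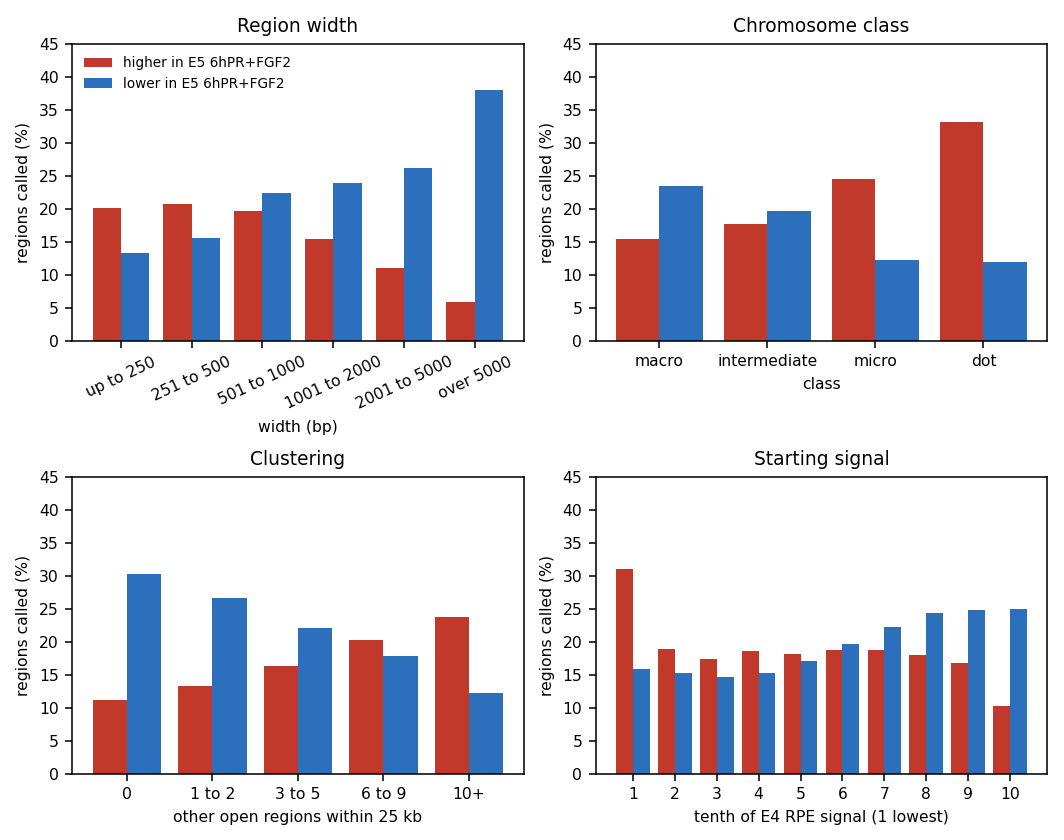
Percentage of open regions that were higher (red) or lower (blue) in E5 6hPR+FGF2 than in E5 RPE, by region width, chromosome class, number of other open regions within 25000 bp and E4 RPE signal in 10 classes of equal size. Calls are by limma at an adjusted p of at most 0.05, without Z, W and depleted regions. Regions over 5000 bp fell in 38.0% of cases, and regions in the lowest class of E4 RPE signal rose in 31.1%.

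**Figure D4:**
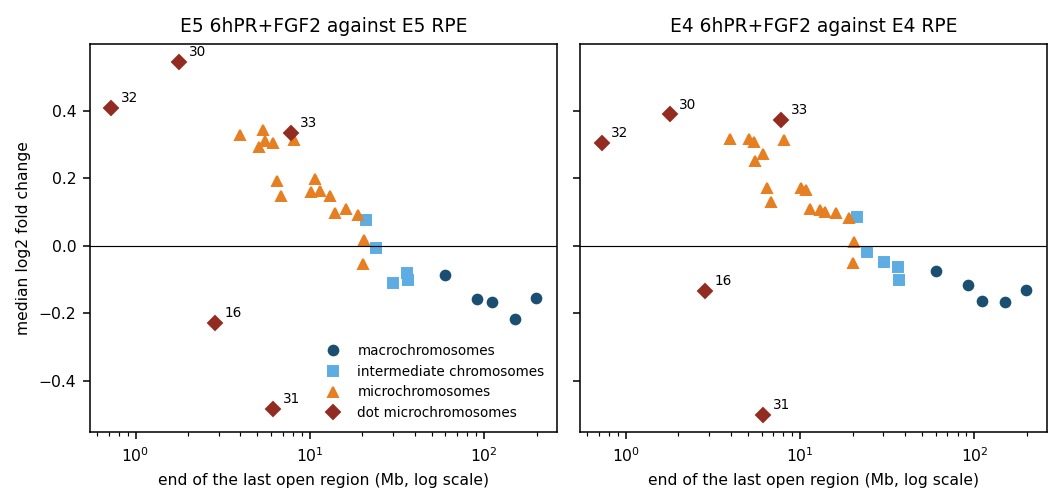
Median log2 fold change of each of 32 chromosomes against its size on a log axis, for E5 6hPR+FGF2 against E5 RPE (left) and E4 6hPR+FGF2 against E4 RPE (right). Symbols mark chromosome classes and numbers the dot chromosomes. Medians were above 0 on 20 of 32 chromosomes at either stage, and chromosomes 16 and 31 stood below the others of similar size.

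Clustered regions gained accessibility relative to isolated regions. Of 1995 regions with no other open region within 25000 bp, 11.2% rose and 30.3% fell, with a median log2 fold change of -0.46. Of 19400 regions with 10 or more neighbours, 23.8% rose and 12.2% fell, with a median of 0.15. The classes of 1 to 2, 3 to 5 and 6 to 9 neighbours had medians of -0.28, -0.12 and 0.01. The difference in median log2 signal between the most clustered and the isolated class was 1.53 and 1.33 in E5 6hPR+FGF2, against 0.80 and 0.87 in E5 RPE. The difference of 0.61 between class medians was larger than its spread between replicates (SD 0.11). The order was the same on macrochromosomes alone, with medians of -0.49 for isolated and 0.05 for the most clustered regions, and on microchromosomes alone, with -0.21 and 0.20. Between the 20% of regions with the fewest and the 20% with the most neighbours it was 0.33 with a window of 10000 bp and 0.54 with 100000 bp.

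Neighbouring regions tended to change in the same direction. The log2 fold changes of adjacent regions had the same sign in 57.6% of 84853 pairs, and in 52.7% of pairs 50 regions apart. Within 1000 bp the share was 60.2%, with a correlation of 0.29 between the fold changes, and it was 56.4% at gaps of 5000 to 25000 bp, with a correlation of 0.15. The share did not decline steadily with distance. It was 57.5% at 25000 to 100000 bp and 63.2% in 457 pairs over 100000 bp apart, with correlations of 0.13 and 0.08. Where both regions of an adjacent pair were called, 69.1% of 12996 pairs went the same way and 4022 pairs went opposite ways. Of called pairs 50 regions apart 56.3% went the same way. Of 15869 gains 8706 had no adjacent call of the same sign, as had 8740 of 16513 losses. With 18.7% of described regions higher and 19.5% lower, many calls would stand alone without any clustering, and the expected share was not computed. Runs of 3 or more adjacent calls in one direction held 20.7% of gains and 21.2% of losses, and the longest run in either direction had 12 regions.

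The longest run of gains, on chromosome 26 from 4412670 to 4429050, had 12 regions with log2 fold changes from 0.59 to 4.88, and 10 of them also rose at E4. Their summed signal was 8035 and 8055 normalized counts in E5 6hPR+FGF2 and 3591 and 3835 in E5 RPE. A run of 10 gains on chromosome 10 from 3041800 to 3067440 had a median log2 fold change of 1.70, and one of 9 on chromosome 19 from 4394870 to 4433110 had a median of 1.87. The longest run of losses, on chromosome 31 from 190500 to 206650, had 12 regions with a median of -1.91. A run of 11 losses on chromosome 4 from 83422070 to 83460390 had summed signals of 7985 and 8105 normalized counts in E5 6hPR+FGF2 and 20331 and 20793 in E5 RPE, and 5 of its regions also fell at E4. A run of 8 on chromosome 18 from 10953900 to 10994970 nearly vanished, with 107 and 62.3 summed normalized counts in E5 6hPR+FGF2 and 1173 and 749.9 in E5 RPE. Within the annotated stretch, 5 gains in a row lay nearest to CAV2 and TES, with summed signals of 1459 and 1588 normalized counts in E5 6hPR+FGF2 and 501.4 and 461.6 in E5 RPE. They were followed by 5 losses in a row nearest to TES and TFEC, with 2023 and 2097 in E5 6hPR+FGF2 and 3313 and 3705 in E5 RPE. Other runs of losses began at a region nearest to GRM8 (7 regions, median log2 fold change -1.62) and ended at one nearest to FOXP2 (4 regions, median -1.58).

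**Figure D5:**
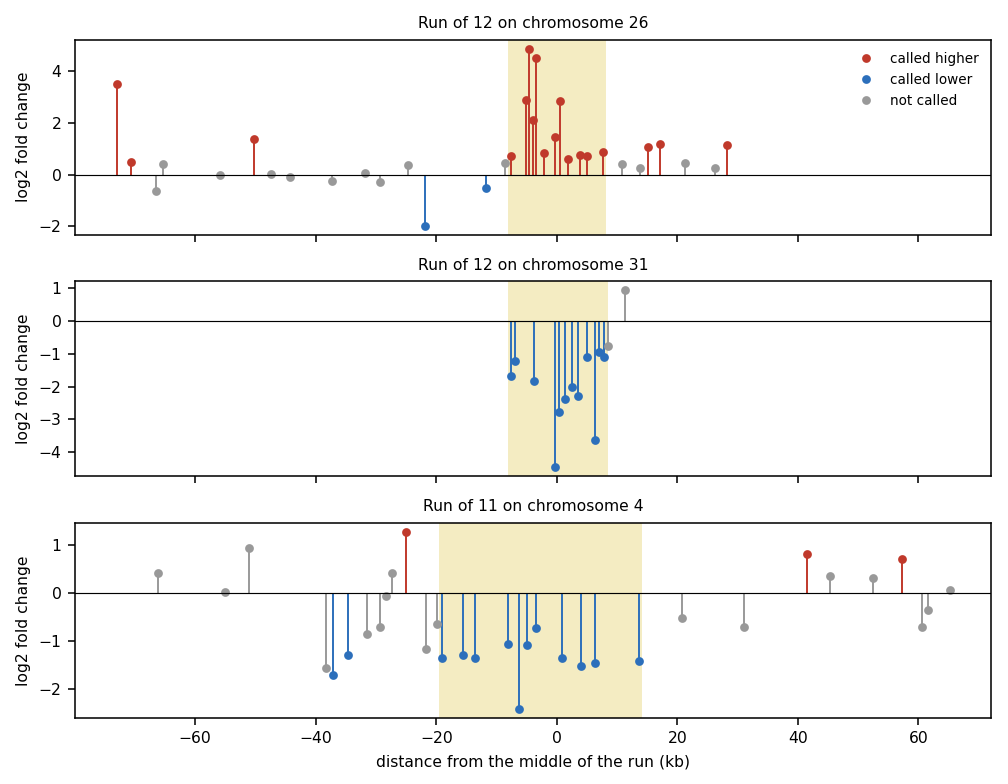
Log2 fold change of E5 6hPR+FGF2 against E5 RPE for the open regions around the 3 longest runs, by distance in kb from the middle of the run. Red points rose, blue points fell and grey points were not called, and shading marks the run. The run of 12 gains on chromosome 26 reaches a log2 fold change of 4.88, and the called regions beside it include falls on the left and gains on both sides.

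Weakly accessible regions gained accessibility relative to strongly accessible regions. The E5 RPE signal is also the base of the fold change, so that counting noise in E5 RPE enters both. The E4 RPE signal, which does not enter the E5 fold change, was therefore used beside it. Open regions were called in each library and merged, so a region weak in RPE can be listed because a treated library was accessible there. Classes by E4 RPE or by a single E5 RPE replicate do not remove this, and its part was not tested. Among the 10% of regions with the lowest E4 RPE signal 31.1% rose and 15.9% fell, with a median log2 fold change of 0.30. Among the 10% with the highest 10.3% rose and 25.01% fell, with a median of -0.15. By 10 equal classes of E5 RPE signal the medians ran from 0.45, below 43.7 normalized counts, to -0.19, above 1503. When E5 RPE replicate 1 set the classes and only replicate 2 entered the fold change, the medians of the lowest and highest class were 0.42 and -0.15, and with the replicates exchanged they were 0.28 and -0.21. The difference in median log2 signal between the highest and the lowest class was 5.49 and 6.10 in E5 6hPR+FGF2 and 6.38 and 6.42 in E5 RPE. The E5 6hPR+FGF2 replicates thus differed by as much as the groups. The difference of -0.64 between class medians became -0.32 when E5 6hPR+FGF2 replicate 1 was left out, -0.98 when replicate 2 was, and -1.61 when regions under a mean of 50 normalized counts were removed, since a weak region then passed only if it was high in other libraries.

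Gains and losses also differed in size by starting signal. Of the 84885 described regions, 11025 had fewer than 50 normalized counts in E5 RPE and 12088 had at least 1000. These classes are cut on the E5 RPE signal, the base of the fold change, so counting noise in E5 RPE enters both here as well. Regions with fewer than 50 normalized counts in E5 RPE made up 20.8% of all gains and 4.05% of all losses, and their gains had a median log2 fold change of 1.94. Regions with at least 1000 made up 7.76% of gains and 20.9% of losses, with medians of 0.57 and -0.71. Losses were mostly partial. Of the 16513 regions that fell, 8072 (48.9%) retained 25 to 50% of their E5 RPE signal, 5446 (32.98%) retained 50 to 75%, and 311 (1.88%) retained under 10%.

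On chromosome Z 10.4% of 4454 regions rose and 12.4% fell, beside 18.2% and 19.3% over all regions. The replicates differed more than the groups. Without the depleted regions Z held 4.72% and 3.34% of the signal in E5 6hPR+FGF2, against 2.87% and 5.08% in E5 RPE. On chromosome W 0 of 203 regions rose and 99 (48.8%) fell by limma, and 0 had a positive fold change at an unadjusted p of 0.05 or less. Of the falls, 74 were at depleted regions, a class defined by low E5 6hPR+FGF2 values. Without the depleted regions 25 of 127 W regions (19.7%) fell and 0 rose. Over all 203 regions, edgeR and DESeq2 called 0 higher and 100 and 86 lower. The median W region had 0 and 33.4 normalized counts in E5 6hPR+FGF2, against 265 and 20.8 in E5 RPE. The library with high W signal in each group was the one with low Z signal. No source used here gives the sex of the 2 embryos pooled in each library, so that a difference between groups on Z or W cannot be told apart from a difference in the sex of the embryos.

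The depleted class was defined by the E5 values and is described without a test. Of its 373 regions 281 lay on chromosomes other than Z and W, 76 on W and 16 on Z. No region met the mirrored criterion, an E5 RPE sum under 2% of the E5 6hPR+FGF2 sum. Outside Z and W, 219 of 281 had no read in either E5 6hPR+FGF2 library, and in 108 the E5 RPE mean reached 100 normalized counts. Of those 108 regions 58 had no read in either E5 6hPR+FGF2 library. The other 173 were weak, with medians of 16.97 and 5.83 normalized counts in E5 RPE, and 161 of them had no such read. The most accessible, chr2:49591540-49591920, had 40.4 and 21.3 normalized counts in E5 6hPR+FGF2, against 60512 and 46022 in E5 RPE. Another, chr19:226130-227350, had 56.9 and 56.2 normalized counts in E5 6hPR+FGF2, against 8811 and 4199.7 in E5 RPE, and on Z chrZ:56085290-56085660 had 14.7 and 0 normalized counts in E5 6hPR+FGF2, against 15993 and 9884 in E5 RPE. The same positions were near 0 at E4 in the treated libraries, where 213 of the 281 regions also retained under 2% of the E4 RPE signal. Depletion was most frequent on dot chromosomes, where it took in 5.16% of 1415 regions, against 0.205% of 44985 on macrochromosomes. Of the 281 regions 175 had another depleted region within 25000 bp. Just inside the limit, chr2:52026940-52028110 retained 1.94% of its E5 RPE signal, and just outside it chr31:897790-898460 retained 2.04%.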

How the data were processed

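ATAC-seq was performed by the authors on RPE nuclei of chicken embryos, with 2 libraries per group and 2 embryos per library. The labels give White Leghorn eggs and the study's methods give SPAFAS pathogen-free eggs for these libraries. Per the study's methods, the GRCg6a build was used, trimming was by Cutadapt and Trim Galore and alignment by Bowtie2, which could report several alignments per read, so that reads of repeated sequence can be counted at another copy. Picard removed duplicates, HMMRATAC called open regions in each library, BEDTools merged them, featureCounts gave unstranded counts and DESeq2 normalized these. Versions, any correction of read ends for the Tn5 cut and whether starts count from 0 or 1 are not given in any source used here. The deposited values are a signal, normalized counts per region. Of 89824 deposited rows, 1 had no position and no reads and was left out. In every library 100% of values were whole multiples of 1 read within a tolerance of 1e-06, so reads were recovered by division.

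Groups follow the labels. Differences were tested with limma 3.58.1 (R 4.3.3) on the log2(normalized count + 1) scale over all 8 libraries, with 4 group means, 4 residual degrees of freedom, a trend in the prior variance and two-sided p-values adjusted by Benjamini-Hochberg over 89823 regions at a threshold of 0.05. On this scale the fold changes of weak regions are understated. p-values measure the spread between libraries of pooled embryos. The alternatives were other pseudocounts, filters and scalings, the replicate number as a block, edgeR 4.0.16 and DESeq2 1.42.0 on recovered reads, reads thinned to the shallowest library, and each library left out. The code was tested on simulated counts. Classes of regions are described by counts and medians, and no test was run over regions. Neighbours are other open regions within 25000 bp.

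Nearest genes and feature classes were taken from the study's supplementary annotation, of which only a part was used, so no set test was run. Named regions were the 6 largest rises and falls, the largest per class, the steadiest with at least 1000 normalized counts, the 3 strongest depleted regions, the 6 largest promoter changes in either direction and up to 6 per gene list. Except for the steady and depleted regions, they required a call, a mean of 100 normalized counts or more in whichever group was higher, and groups that did not overlap. WNT16 and DSCAM regions with larger changes fell short of that mean. Members, lists and tests were chosen with earlier results of these data known. No genome sequence of the GRCg6a build was used here.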

Additional observations from a re-analysis of the deposited data

Results flagged for a closer look

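The response differed between the stages at 2 open regions by the interaction of stage and treatment in limma. At chr1:196930-199350 the interaction was 5.64 ± 0.43 SE on the log2 scale (limma adjusted p = 0.00475). The region had 1749 and 3063 normalized counts in E5 6hPR+FGF2, against 5719 and 4639.7 in E5 RPE. At E4 it had 73.8 and 41.2 in 6hPR+FGF2, against 7126 and 5459 in RPE. At chr1:199560-200610 the interaction was 4.77 ± 0.37 SE (limma adjusted p = 0.00475), with 584 and 1074 normalized counts in E5 6hPR+FGF2, against 1667 and 1343 in E5 RPE. Its E4 values were 50.4 and 51.9 after treatment, against 3040.5 and 2377 in developing RPE. At both regions all treated values lay below all developing values of the same stage, and the regions are 210 bp apart in a run of 7 adjacent losses. Their E4 6hPR+FGF2 values summed to under 2% of their E4 RPE values, the limit that defines the depleted class at E5.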

How the results depend on the processing

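The count of called regions stayed within 1.5 times the reported 33694, from 30236 to 36563, under every setting other than leaving out a library, and no call changed direction under any of the 24 settings. With the replicate number as a block it was 36563, and with crossed numbers, added after seeing the data, 32928. Deviations of same-numbered libraries correlated at -0.21 at E5 and 0.33 at E4 over all regions, and at 0.05 and 0.33 without Z and W. The labels tie the numbers to no shared batch and each group has 2 libraries, so the numbers were not taken as pairs. Leaving out 1 library gave 18260 to 33735 calls, 9217 to 16724 higher and 9043 to 17028 lower. It gave differences between class medians of 0.25 to 0.37 by chromosome class, 0.49 to 0.68 by neighbours, -0.48 to -0.32 by width and -0.98 to -0.32 by starting signal. A minimum mean of 50 normalized counts moved the width difference to -0.78 and the starting-signal difference to -1.61. Within low and middle E4 RPE signal per 100 bp the width difference was -0.785 and -0.065, and with a window of 10000 bp the neighbour difference was 0.33. Adjacent regions had the same sign in 60.2% of pairs up to 1000 bp apart, 56.4% at 5000 to 25000 bp, 63.2% over 100000 bp and 52.7% at 50 regions apart. With at least 100 normalized counts in E5 RPE the depleted regions numbered 119, 161 and 235 at limits of 1, 2 and 5%. Of 88 named regions with a call, 78 kept it under every setting that tested them. The calls of ORC5 and UBE2Q2 regions were lost when reads were thinned and when either E5 RPE replicate was left out.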

Other observations

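On the macrochromosomes the response varied with distance from the first or last open region of the chromosome. The median log2 fold change was 0.15 in 2352 regions under 2 Mb from it, of which 25.3% rose and 12.5% fell in E5 6hPR+FGF2. It was -0.13 in 8044 regions at 5 to 15 Mb and -0.21 in 32052 regions farther away, of which 14.3% rose and 24.8% fell. At E4 the medians were 0.12, -0.12 and -0.17. The end regions also had more neighbours within 25000 bp, with a median of 8 against 4 in the regions at least 15 Mb away, and the part of clustering was not tested. These distance classes were chosen after the data were seen.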
